A study of Mus musculus with 8 samples.

Results

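Female mouse neural stem cells (fNSC) were compared with mouse embryonic fibroblasts (MEF) on Illumina BeadChips, across all genes that the platform annotation names. The comparison used 4 of the 8 arrays of the series, 2 of fNSC and 2 of MEF. The other 4 arrays, 2 of parthenogenetic neural stem cells (pNSC) and 2 of neural stem cells titled miPS-NSC, all 4 of the genotype OG2+/-, shared the normalization and the estimate of the spread. The labels give fNSC the genotype OG2ROSA and the source neural stem cell. They give MEF the genotype OG2+/- and the source embryonic fibroblast, whereas the signal columns of the MEF arrays carry the name OG2ROSA1, and the labels do not settle which one holds. All samples are labelled female, neither OG2 nor ROSA is explained, and no age of the embryos is given. The sample names of fNSC, pNSC and miPS-NSC carry the marks P27, P18 and P8, which may be passage numbers, and those of MEF carry no such mark. Any effect of time in culture was not tested. The growth medium on every sample, MEF included, is the neural stem cell expansion medium with its usual pair of mitogens, so the medium of the fibroblasts cannot be read from the labels with certainty. The second array of each group carries the suffix re, which the labels do not explain, and they do not say if both arrays of a group hold RNA of 1 culture. A p-value below therefore rests on the spread among these arrays, and that spread may be technical.

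Neural stem cells line the ventricles of the developing and adult brain, divide in response to growth factors, and give rise to neurons, astrocytes and oligodendrocytes. Notch signalling through the transcription factor RBPJ keeps them undifferentiated by switching on repressors of the Hes and Hey families. Embryonic fibroblasts come from the mesenchyme, make the collagens, fibronectin-type glycoproteins and cross-linking enzymes of connective tissue, and adhere to their substrate through integrins and contractile actin fibres. Transforming growth factor beta (TGF-beta) and the YAP-TEAD pair of transcriptional regulators, which responds to cell spreading, drive many of the genes for matrix and contraction.

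On each array, between 10553 and 10902 of 25697 probes were detected at a detection p under 0.01. Values below are log2 signals after background correction and quantile normalization, on a scale where the lowest detected probe of an array stood between 6.13 and 6.29. The 2 arrays of a group gave log2 values whose differences had an SD of 0.261 across genes in fNSC and 0.164 in MEF, with 40 and 2 genes apart by over 2-fold. The lower quartile of the raw signals was 180 and 182 on the fNSC arrays, against 159 and 139 on the MEF arrays, and the upper quartile 473 and 473 on the fNSC arrays, against 687 and 647 on the MEF arrays. On the 4 other arrays these quartiles lay between 176 and 203 and between 465 and 541. The number of arrays limits the precision.

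The cells differed in a large share of the genes. Of 8107 genes tested with limma, 3492 (43.1%) were called at an adjusted p under 0.05 and a difference of at least 2-fold. In fNSC 2100 genes (25.9%) were higher and 1392 (17.2%) lower than in MEF. Without background correction these counts were 1209 and 976, and with the authors' processed values 1084 and 1054. In bulk RNA, fewer cells that express a gene and less of its RNA per cell cannot be told apart. The arrays of fNSC and MEF did not overlap for 7360 genes (90.8%), so a separation of 2 against 2 arrays is the background here and was not read as a result for single genes. The median log2 difference over all genes was 0.25 and the median size of a difference 0.85. At a log2 difference of 4 or more, 139 genes were higher and 178 lower in fNSC. Of the higher genes, 744 were detected on no MEF array, and of the lower ones 364 on no fNSC array. Among these 744 and 364 genes, 12 were detected on neither pair of arrays and have no fold. Genes measured on all 4 arrays numbered 6344, of which 2236 were called.

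**Figure D1:**
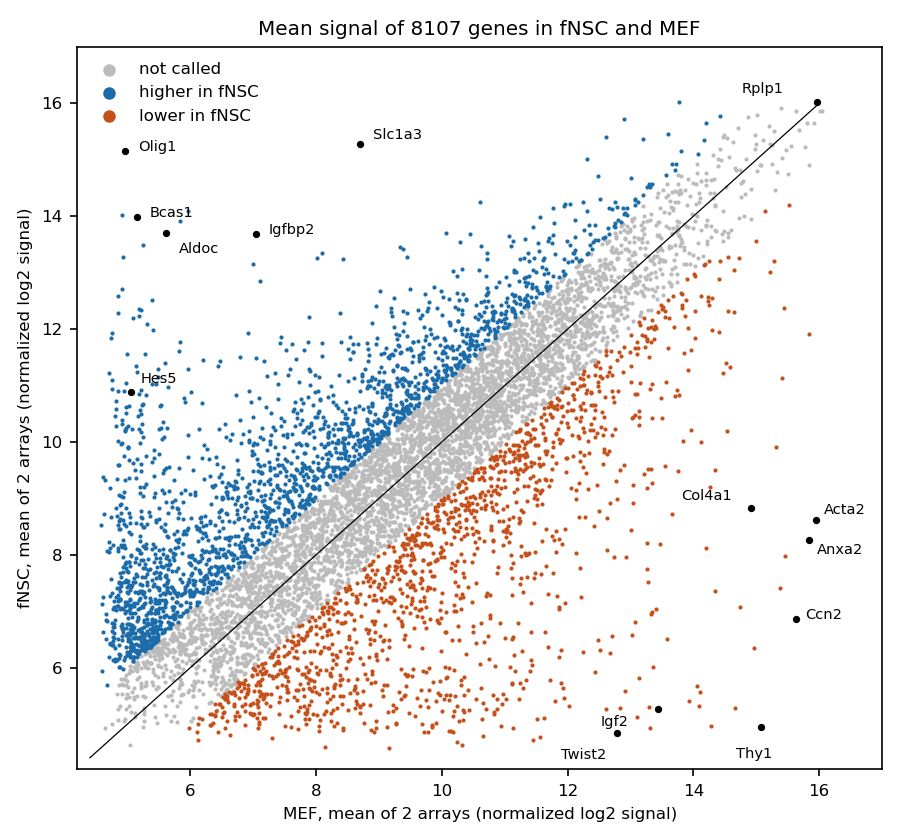
Mean normalized log2 signal of each of 8107 genes in fNSC (vertical axis) against MEF (horizontal axis), 2 arrays each; blue genes were called higher in fNSC (2100), orange genes lower (1392), grey genes were not called, and the line marks equal signal. Olig1 and Thy1 lie at opposite edges, near 15 in one cell type and at background in the other, while the ribosomal gene Rplp1 lies on the line at the top of the scale.

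The named genes do not cover both cell types equally. Names exist for the probes of the authors' processed values, each of which reached a detection p under 0.05 on 4 or more arrays, and 6 of the 8 arrays are neural stem cells. Of 1324 probes detected on both fNSC arrays and no MEF array, 1226 have a gene name, against 581 of 1339 detected on both MEF arrays and no fNSC array. Over all 12478 probes that passed the filter, named or not, 5752 (46.1%) were called, 3076 higher and 2676 lower in fNSC. Among the 989 called probes without a name, 168 were higher and 821 lower in fNSC. The split of 2100 higher against 1392 lower genes holds for the named genes alone. Classical fibroblast genes such as the main chains of collagen types I and III (Col1a1, Col3a1), fibronectin (Fn1) and decorin (Dcn) have no named probe here.

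The widest difference on the fNSC side was that of Olig1, a transcription factor of neural and oligodendrocyte progenitors. It had log2 signals of 15.13 and 15.17 on the fNSC arrays, against 5.01 and 4.92 on the MEF arrays, and was at least 480.2-fold higher (log2 difference 10.19, SE 0.0945, adjusted p = 5.78e-09). Both fNSC arrays stood near the top of the scale and both MEF arrays below detection. A fold marked "at least" sets the brighter cell type against the detection floor of the arrays of the other one. Nup210, a nuclear pore protein, measured 14.00 and 14.06 in fNSC, against 4.96 and 4.87 in MEF (at least 221-fold), and Bcas1, a marker of early myelinating oligodendrocytes, 13.90 and 14.09 in fNSC, against 5.12 and 5.18 in MEF (at least 215-fold). The potassium channel gene Kcnc1 was at least 130.2-fold higher, the repressor Sox21 at least 152-fold, the brain isoform of aldolase Aldoc at least 175-fold and the glycine cleavage enzyme Gldc at least 204-fold. In this group of the largest differences were also Fam181b (at least 88.9-fold), Camk2b, a subunit of the neuronal calcium/calmodulin kinase (at least 66.1-fold), Slc25a18, a mitochondrial glutamate carrier (at least 68.8-fold), Spsb4 (at least 77.1-fold) and Astn1, an adhesion protein of neurons migrating along glia (at least 68.1-fold). Bex2 was at least 231-fold higher on its brightest probe and 7.44 higher in log2 terms on a further probe, but another probe of the gene gave -0.07. Among genes measured on all 4 arrays, Igfbp2, a binding protein of insulin-like growth factors, stood at 13.62 and 13.75 in fNSC, against 6.98 and 7.10 in MEF (100.4-fold, log2 SE 0.11, adjusted p = 1.24e-08) and the glial glutamate transporter Slc1a3 at 15.27 and 15.28 in fNSC, against 8.79 and 8.60 in MEF (95.5-fold). Tril, an accessory protein of Toll-like receptors, was 71.3-fold higher, the reticulon Rtn1 54-fold, Chst7, a sulfotransferase of glycosaminoglycans, 38.1-fold, the exchange factor Vav3 38-fold, the tetraspanin Tspan12 32.3-fold, Plekhb1 31.3-fold, Cd93 30.1-fold and the acyl-CoA thioesterase Acot1 28.1-fold.

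On the fibroblast side the widest difference was that of Thy1, a surface glycoprotein carried by fibroblasts and by mature neurons. It had log2 signals of 5.11 and 4.79 in fNSC, against 15.08 and 15.06 in MEF, and was at least 465-fold lower in fNSC (log2 difference -10.12, SE 0.123, adjusted p = 6.34e-09). The matricellular thrombospondin Thbs2 measured 5.43 and 5.14 in fNSC, against 14.61 and 14.71 in MEF (at least 349-fold lower), the membrane-bound matrix protease Mmp14 4.88 and 5.04 in fNSC, against 14.23 and 14.33 in MEF (at least 269-fold), and the connective tissue growth factor Ccn2 6.64 and 7.08 in fNSC, against 15.71 and 15.56 in MEF (437-fold). All 3 were bright on both MEF arrays, and of these Ccn2 alone was detected in fNSC. Loxl1, which cross-links elastin, was at least 235-fold lower, Anxa3, an annexin, 393-fold, Cav1, the coat protein of caveolae, at least 237-fold, Ccn4 at least 231-fold, the growth factor Igf2 at least 149-fold and the fibulin Fbln2 251-fold. Also among the largest were Gask1b (at least 211-fold), Scarf2 (at least 138-fold), Myadm (at least 135-fold), Aebp1 (at least 118-fold) and the basic helix-loop-helix factor Twist2 (at least 95.5-fold). Measured on all 4 arrays were Serpinf1, a secreted serpin (203-fold lower), Anxa2 (190.2-fold), Igfbp7 (178-fold), smooth muscle actin Acta2 (162-fold), Cd248, or endosialin (87.1-fold), and Flrt2 (86.2-fold).

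**Figure D2:**
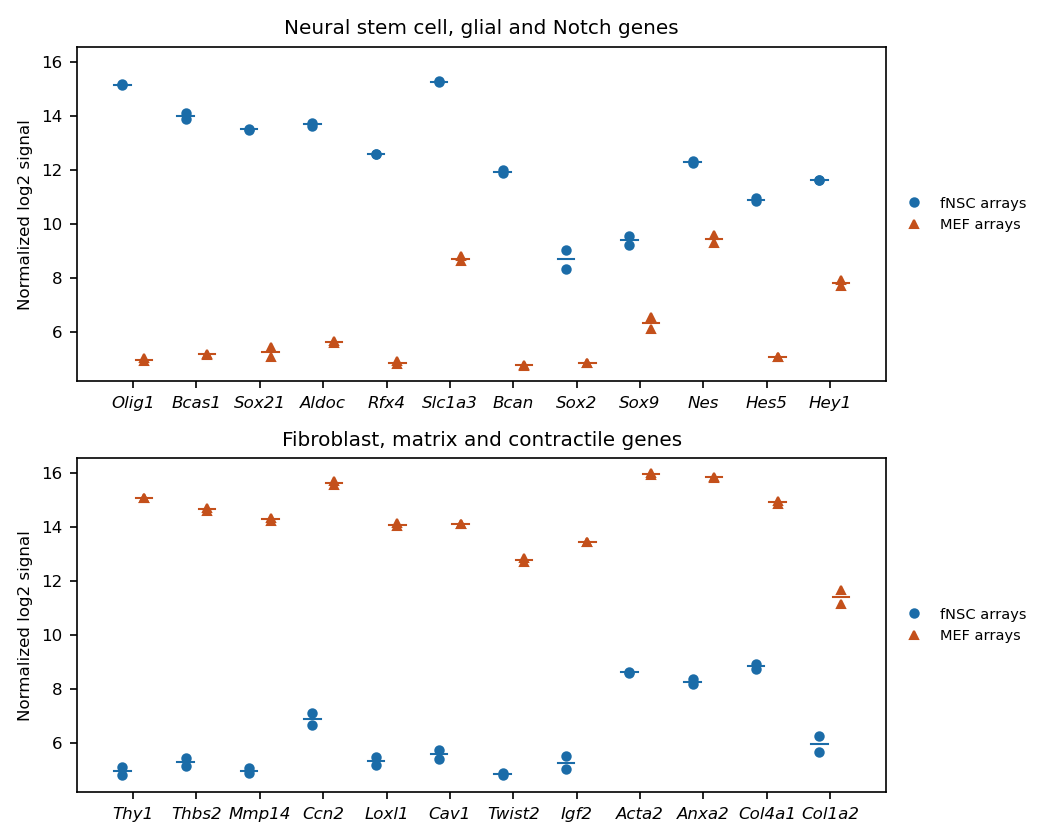
Normalized log2 signal of 24 genes on the 2 fNSC arrays (circles, left of each pair) and the 2 MEF arrays (triangles, right), with a bar at each group mean. Every neural gene shown lies higher in fNSC and every fibroblast gene higher in MEF. The arrays of a group lie farthest apart for Sox2 in fNSC and for Col1a2 in MEF.

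The 5 genes with the brightest probes in each cell type had 2 genes in common, a rank of probe signals and not of RNA levels. In both sets were the ribosomal proteins Rplp1, at 16.01 and 16.05 in fNSC, against 15.96 and 15.96 in MEF, and Rps20, at 15.91 and 15.83 in fNSC, against 16.01 and 16.02 in MEF, neither called. In the set of fNSC alone were brain creatine kinase Ckb (16.02 and 16.01 in fNSC, against 13.85 and 13.71 in MEF, 4.72-fold higher), tubulin Tuba1b (15.88 and 15.96 in fNSC, against 15.46 and 15.34 in MEF, not called) and the ATP synthase subunit Atp5b (15.87 and 15.87 in fNSC, against 15.61 and 15.65 in MEF, not called). In the set of MEF alone were the ribosomal protein Rpl41 (15.84 and 15.88 in fNSC, against 16.05 and 16.05 in MEF, not called), the chaperone Hspa8 (15.67 and 15.63 in fNSC, against 15.91 and 15.93 in MEF, not called) and Acta2 (8.63 and 8.59 in fNSC, against 15.99 and 15.91 in MEF). A further probe of Hspa8 gave 1.56 in log2 difference.

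Neural stem cell and radial glia markers were higher in fNSC almost throughout. Of 36 listed markers 24 were measured, and 21 were higher (87.5%, against 25.9% of all genes) and 1 lower, with a median log2 difference of 3.59. Both fNSC arrays detected each of the 24, and for 14 of them no MEF array did. The naming of probes favours genes detected in neural stem cells, as described above, so these detection counts are partly set by the filter. Listed markers such as Sox1, Pax6 and Prom1 have no named probe that passed it and are not counted. Rfx4, a transcription factor of the ventricular zone, had 12.59 and 12.57 in fNSC, against 4.92 and 4.79 in MEF (at least 80.8-fold higher). The brain-specific proteoglycans brevican and neurocan followed, Bcan with 11.99 and 11.86 in fNSC, against 4.72 and 4.77 in MEF, and Ncan with 11.84 and 11.84 in fNSC, against 4.65 and 4.83 in MEF (at least 51.3-fold and at least 48.4-fold higher). Ttyh1, a chloride channel family member, was at least 34.4-fold higher and the brain metallothionein Mt3 at least 22.4-fold. Sox2, the core transcription factor of neural stem cells, measured 8.33 and 9.04 in fNSC, against 4.83 and 4.83 in MEF (at least 5.43-fold), Sox9 9.22 and 9.56 in fNSC, against 6.08 and 6.55 in MEF (at least 8.02-fold), and nestin, Nes, 12.32 and 12.23 in fNSC, against 9.58 and 9.29 in MEF (7.17-fold). Nestin was detected on the MEF arrays as well. The marker that was lower in fNSC, vimentin, Vim, stood at 12.20 and 13.07 in fNSC, against 13.90 and 13.70 in MEF (2.25-fold lower in fNSC, adjusted p = 0.00401), with the fNSC arrays far apart; without the first fNSC array its log2 difference was -0.74 and not called. Tenascin C, Tnc, was at 13.94 and 13.95 in fNSC, against 14.88 and 14.95 in MEF, and was just short of a call (log2 difference -0.97). Its further probes gave log2 differences of -1.25, -1.22, -0.43 and -0.15. Tnc was called lower with median scaling (-1.06), with the authors' processed values (-1.01), without the first MEF array (-1.01) and, chosen after seeing the data, with background and quantiles fitted on the 4 arrays alone. Msi2, an RNA-binding protein, was at 9.03 and 8.95 in fNSC, against 8.40 and 8.24 in MEF, also without a call. A further probe of Msi2 gave a log2 difference of -0.15.

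Of 33 measured transcription factors of the nervous system, 23 (69.7%) were higher in fNSC and 5 (15.2%) lower, against 25.9% and 17.2% of all genes (median 2.87). Of these factors 19 were detected on both fNSC arrays and no MEF array, a count that the naming of probes also favours. Nkx2-2, a ventral patterning and oligodendrocyte factor, had 11.34 and 11.10 in fNSC, against 4.73 and 4.69 in MEF (at least 31.5-fold), with a further probe at 2.75 in log2 difference. Pou3f1, a POU-domain factor, was at least 25.2-fold higher, the forebrain and midbrain factor Otx1 at least 21-fold, and En2, a factor of the midbrain-hindbrain boundary, at least 17.6-fold. Its paralogue En1 differed in the opposite direction, at 5.90 and 5.12 in fNSC, against 10.34 and 10.37 in MEF (at least 17.7-fold lower in fNSC). Zfhx3, a large homeobox and zinc finger protein, was 15.1-fold lower, the BMP-responsive inhibitor Id4 12.7-fold, Bcl11b 9.17-fold and the Iroquois factor Irx3 2.93-fold.

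Oligodendrocyte lineage genes were led by Olig1 and Bcas1, given above. Of 10 measured, 8 (80%) were higher and 1 (10%) lower, against 25.9% and 17.2% of all genes (median 3.31). The SoxE factor Sox8 stood at 10.73 and 10.58 in fNSC, against 5.45 and 5.61 in MEF (at least 21.3-fold), Olig2 at 8.29 and 7.85 in fNSC, against 4.79 and 4.90 in MEF (at least 3.55-fold) and the myelin glycoprotein Omg at 8.12 and 8.10 in fNSC, against 4.74 and 4.70 in MEF (at least 3.65-fold). The member that was lower in fNSC was Pdgfra, the platelet-derived growth factor receptor of both oligodendrocyte precursors and mesenchyme, at 5.6 and 5.32 in fNSC, against 11.89 and 11.99 in MEF (at least 53-fold). Cspg4, the NG2 proteoglycan of precursors and pericytes, was at 6.78 and 6.65 in fNSC, against 7.59 and 7.48 in MEF, with no call. The mature myelin genes Mbp, Mog and Mag and the factor Sox10 have no named probe that passed the filter.

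Of 12 measured astrocyte genes, 4 were higher in fNSC, 3 lower and 5 not called (median 0.35). These shares, 33.3% higher and 25% lower, against 25.9% and 17.2% of all genes, lie near the background. Besides Aldoc and Slc1a3, the higher members were the acyl-CoA synthetase Acsl6 (at least 5.61-fold) and the glutamate transporter Slc1a2 (8.44 and 8.29 in fNSC, against 6.06 and 5.79 in MEF, at least 4.34-fold). Lower were Gja1, the gap junction protein connexin 43, with 10.01 and 10.02 in fNSC, against 13.83 and 13.85 in MEF (14.2-fold lower, log2 SE 0.0817), Id4, and the lipid carrier Apoe, with 6.06 and 5.45 in fNSC, against 7.21 and 7.01 in MEF (at least 1.86-fold lower). Cystatin C, Cst3, was at 13.76 and 13.53 in fNSC, against 13.33 and 13.53 in MEF, and the chaperone Clu at 7.34 and 7.52 in fNSC, against 6.69 and 6.71 in MEF. Gfap, Aqp4 and S100b have no named probe here. Apoe was not called without background correction (log2 difference -0.48) or with the authors' processed values (-0.62).

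Of 27 measured genes associated with neurons, 15 (55.6%) were higher in fNSC and 6 (22.2%) lower, against 25.9% and 17.2% of all genes (median 1.24). Among the higher ones were the granin Scg3 (at least 5.14-fold), the synaptotagmin Syt11 (14.22 and 14.29 in fNSC, against 10.57 and 10.63 in MEF, 12.6-fold), the endosomal protein Nsg2 (at least 4.96-fold), Map2 (12.64 and 12.45 in fNSC, against 9.30 and 9.18 in MEF, 9.91-fold) and Gap43 (8.04-fold). The further probes of Syt11 gave smaller log2 differences, 0.58 and 1.5, than the 3.66 of the brightest one. Neuron-specific enolase, Eno2, ran the other way at 6.51 and 6.49 in fNSC, against 11.17 and 11.06 in MEF (24.5-fold lower, adjusted p = 1.45e-08), as did the tubulin regulator Stmn2 (at least 10.5-fold), Dpysl3 (5.6-fold), the RNA-binding protein Celf4 (at least 1.85-fold), Nrn1 (3.73-fold) and the kinesin Kif1a (2.82-fold). Celf4 and Kif1a were not called without background correction (log2 differences -0.73 and -0.88) or with the authors' processed values (-0.83 and -0.98).

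Of 44 surface proteins of adhesion and axon guidance, 19 were higher in fNSC and 14 lower (43.2% higher and 31.8% lower, against 25.9% and 17.2% of all genes, median 0.46). On the neural side stood the tetraspan protein Gpm6a (at least 20.1-fold, a further probe at 1.52), the semaphorin Sema6d (at least 19.1-fold), contactin Cntn1 (at least 15.8-fold), neurexin Nrxn2 (at least 10.2-fold), Lrrn1 (26.3-fold) and Nrcam (19.3-fold). On the fibroblast side were the repellent ligand Slit2, with 5.74 and 5.09 in fNSC, against 11.78 and 11.81 in MEF (at least 48.1-fold lower in fNSC), the netrin receptor Unc5b (at least 16.7-fold), ephrin Efna5 (31.2-fold), the ephrin receptor Epha3 (at least 11.1-fold), neuropilin Nrp1 (11-fold) and ephrin Efnb2 (at least 5.59-fold). RNA regulators of neural cells gave 6 higher and 4 lower of 18 (33.3% higher and 22.2% lower, against 25.9% and 17.2% of all genes, median 0.30), near the background. The Hu proteins Elavl4 (at least 3.46-fold) and Elavl2 (6.68-fold) were higher, and the oncofetal RNA-binding protein Igf2bp3 was at 5.50 and 5.12 in fNSC, against 11.97 and 12.06 in MEF (at least 55.9-fold lower).

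Of 20 measured genes of the Notch pathway, 9 were higher in fNSC, 5 lower and 6 not called (45% higher and 25% lower, against 25.9% and 17.2% of all genes, median 0.79). The repressor Hes5, a direct target of the Notch-RBPJ complex, had 10.83 and 10.96 in fNSC, against 5.04 and 5.07 in MEF (at least 25.1-fold higher, log2 difference 5.83, SE 0.0867, adjusted p = 1.13e-08). The feedback inhibitor Nrarp (9.74 and 9.76 in fNSC, against 5.24 and 5.35 in MEF, at least 11.4-fold) and the repressor Hey1 (11.63 and 11.62 in fNSC, against 7.70 and 7.90 in MEF, 14.2-fold), both Notch targets too, were also higher. Hes1, which many cell types use, stood at 10.29 and 10.36 in fNSC, against 10.67 and 10.72 in MEF, and was not called. The ligand Dll1 was 4.45-fold higher, the ubiquitin ligase Dtx4 5.64-fold, the glycosyltransferase Mfng at least 1.52-fold and Hes6 4.47-fold. The ligand Jag1 was 3.59-fold lower, the non-canonical ligand Dlk1 at least 16-fold, Numbl at least 2.5-fold, and the gamma-secretase subunits Psen2 and Ncstn 3.15-fold and 2.27-fold. Mfng, Numbl and Psen2 were not called without background correction (log2 differences 0.89, -0.79 and -0.84) or with the authors' processed values (0.78, -0.92 and -0.96). Jag1 was not called without background correction (log2 difference -0.91).

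The promoter of Hes5 is shown because this gene had the largest difference of the pathway. The 250 bases before its start are given 5′ to 3′ on the plus strand (RefSeq, GRCm38.p6, chr4:154960673-154960922). Capitals mark the RBPJ-type heptamer GTGGGAA or its reverse complement, which a search of both strands found at 2 places, the first beginning 226 and the second 83 bases before the start.
Hes5: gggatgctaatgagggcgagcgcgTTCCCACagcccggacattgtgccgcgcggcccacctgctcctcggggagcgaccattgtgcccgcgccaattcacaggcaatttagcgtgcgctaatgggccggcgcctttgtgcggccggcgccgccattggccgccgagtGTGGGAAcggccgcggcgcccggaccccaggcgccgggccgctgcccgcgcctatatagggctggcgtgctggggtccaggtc
Of the 16 measured Notch members with a promoter in the table, 2 held the heptamer in this window, Hes5 and Psen2, against 5.42% of 32851 promoter windows of the same length. A match is a match of letters and was not tested for binding.

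Of 27 Wnt pathway genes, 10 were higher in fNSC and 7 lower (37% higher and 25.9% lower, against 25.9% and 17.2% of all genes). The ligands Wnt7a, with 11.12 and 11.09 in fNSC, against 4.84 and 4.67 in MEF (at least 29-fold), and Wnt7b (at least 13.7-fold), which neural progenitors secrete, were the furthest apart, followed by the receptors Fzd3 (at least 11.2-fold) and Fzd10 (at least 5.74-fold), the feedback target Axin2 (9.46 and 9.19 in fNSC, against 5.75 and 5.74 in MEF, at least 8.47-fold) and Wnt5b (at least 2.88-fold). The receptors Fzd7 (5.71-fold lower), Fzd2 (2.94-fold) and Ror2 (2.39-fold), the Wnt export protein Wls (5.12-fold) and Nkd2 (at least 2.47-fold) were lower in fNSC. Of 5 Hedgehog genes measured (of 18 listed), 3 were lower (60%, against 17.2% of all genes) and none higher. The lower ones were the glypican Gpc3 (6.04-fold), the ligand exporter Disp1 (4.11-fold) and Hhat (at least 1.39-fold). Wnt5b, Nkd2 and Hhat were not called without background correction (log2 differences 0.99, -0.71 and -0.45) or with the authors' processed values (0.87, -0.83 and -0.57). Ror2 was not called without background correction (log2 difference -0.96).

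Fibroblast markers were lower in fNSC with 2 exceptions. Of 38 listed, 19 were measured, 17 were lower (89.5%, against 17.2% of all genes) and 2 higher, with a median log2 difference of -5.23. Besides Thy1, Loxl1, Fbln2, Twist2 and Pdgfra, podoplanin, Pdpn, had 6.61 and 7.29 in fNSC, against 13.39 and 13.28 in MEF (83.4-fold lower). Both fNSC arrays detected 12 of the 19, whereas 7 were detected on both MEF arrays and no fNSC array. The exceptions were elastin, Eln, at 7.08 and 7.22 in fNSC, against 5.47 and 5.52 in MEF (at least 1.87-fold higher), and the odd-skipped factor Osr2, at 9.24 and 9.18 in fNSC, against 6.42 and 6.29 in MEF (7.22-fold higher). Eln was not called without background correction (log2 difference 0.58) or with the authors' processed values (0.45).

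Of 20 transcription factors of mesenchyme, 6 (30%) were higher and 12 (60%) lower, against 25.9% and 17.2% of all genes (median -2.27). The share of higher calls lies near the background. Lower were Twist2, the repressor of epithelial genes Snai1 (5.13 and 4.91 in fNSC, against 9.92 and 9.89 in MEF, at least 12.9-fold), Klf4 (6.44 and 6.81 in fNSC, against 10.50 and 10.50 in MEF, 14.7-fold), Gata6 (at least 4.65-fold), the limb factor Shox2 (at least 7.59-fold) and Runx1 (at least 3.57-fold). Higher in fNSC were the nuclear receptor Nr2f1, which also patterns the cortex, at 12.35 and 12.46 in fNSC, against 8.90 and 8.99 in MEF (11-fold), Zeb1 at 13.90 and 13.72 in fNSC, against 11.43 and 11.48 in MEF (5.14-fold), Tead2 (3.81-fold), Msx1 (at least 4.35-fold), Ebf3 (at least 1.51-fold) and Osr2. Ebf3 was not called without background correction (log2 difference 0.47) or with the authors' processed values (0.33).

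All 12 measured collagen chains, of 30 listed, were lower in fNSC (100%, against 17.2% of all genes, median -4.30). The basement membrane chains Col4a2 and Col4a1 stood at 7.50 and 7.23 in fNSC, against 14.39 and 14.30 in MEF, and at 8.93 and 8.72 in fNSC, against 14.86 and 14.96 in MEF (126-fold and 67.9-fold lower). Col7a1, of anchoring fibrils, was at least 104-fold lower, and Col1a2, the second chain of type I collagen, at least 36.5-fold, with 5.65 and 6.23 in fNSC, against 11.14 and 11.66 in MEF. The microfibrillar chains Col6a1 and Col6a2 were 38.9-fold and at least 11.6-fold lower. The smallest differences were still past the threshold, and 7 of the 12 chains were detected on both fNSC arrays. Of 20 genes that fold, process and cross-link collagen, 15 (75%, against 17.2% of all genes) were lower and 5 not called (median -1.70). The lysyl oxidases Loxl1 and Loxl2 (4.88 and 4.64 in fNSC, against 11.44 and 11.66 in MEF, at least 40.6-fold) led, followed by the prolyl hydroxylases P4ha2 (at least 17.1-fold), P3h3 (8.45-fold) and P4ha1 (6.49-fold) and the procollagen C-proteinase enhancer Pcolce2 (8.53-fold). The lysyl hydroxylase Plod2 was at 10.42 and 10.66 in fNSC, against 9.79 and 9.90 in MEF, and P3h2 at 7.66 and 8.05 in fNSC, against 7.19 and 7.39 in MEF, neither called. P4hb, protein disulfide isomerase, was near equal at 14.06 and 14.11 in fNSC, against 14.46 and 14.50 in MEF.

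**Figure D3:**
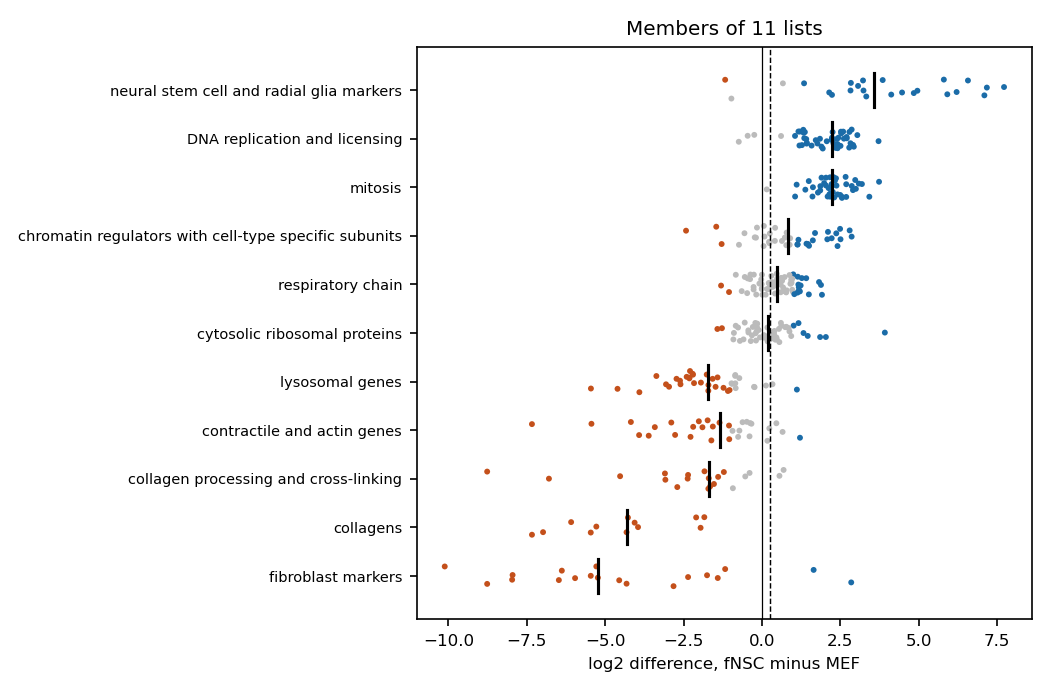
Log2 difference, fNSC minus MEF, of each measured member of 11 gene lists (blue called higher in fNSC, orange called lower, grey not called), with a black bar at the list median and a dashed line at the median of all genes (0.25); vertical jitter carries no value. Replication genes have a median of 2.24 (quartiles 1.37 and 2.53) and mitosis genes one of 2.25 (quartiles 1.97 and 2.59). Neural stem cell, collagen and fibroblast genes spread over wide ranges.

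Glycoproteins and proteoglycans of the matrix gave 27 lower and 10 higher of 45 (22.2% higher and 60% lower, against 25.9% and 17.2% of all genes, median -1.83). Lower were Thbs2, Ccn2, Ccn4, Fbln2, nidogen Nid1 (6.13 and 5.51 in fNSC, against 13.15 and 13.12 in MEF, at least 122-fold) and the microfibril protein Mfap2 (at least 37.6-fold, one further probe at -4.78 and another at -0.59). Higher were the brain proteoglycans Bcan, Ncan and Cspg5 (11.20 and 11.38 in fNSC, against 5.55 and 5.41 in MEF, at least 33.1-fold), Spon1 (at least 2.43-fold), the brain link protein Hapln4 (at least 3.37-fold) and Eln. Matrix proteases and their inhibitors were lower in 20 of 27 cases and higher in 2 (7.41% higher and 74.1% lower, against 25.9% and 17.2% of all genes, median -2.65). Gelatinase A, Mmp2, had 6.52 and 6.59 in fNSC, against 12.66 and 12.76 in MEF (71.2-fold lower), and Mmp11, Mmp23 and Adamts5 were at least 17.2-fold, at least 27-fold and at least 32.7-fold lower. The higher ones were the inhibitor Timp4, with 10.11 and 10.27 in fNSC, against 4.96 and 4.97 in MEF (at least 15.4-fold), and Adam12 (3.25-fold). Hapln4 was not called without background correction (log2 difference 0.83) or with the authors' processed values (0.72). Spon1 was not called with the authors' processed values (log2 difference 0.92).

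Of 33 integrin and focal adhesion genes, 21 (63.6%) were lower in fNSC and 3 (9.09%) higher, against 17.2% and 25.9% of all genes (median -2.08). Lower besides Cav1 were the caveolar coat genes Cavin2 (6.86 and 6.14 in fNSC, against 13.63 and 13.54 in MEF, at least 129-fold) and Cavin3 (at least 45.2-fold), whereas the second caveolin, Cav2, was at 9.83 and 9.86 in fNSC, against 6.87 and 7.10 in MEF, and thus 7.25-fold higher. Zyxin-family Trip6 (at least 21.6-fold), Pdlim7 (30.8-fold) and alpha-actinin Actn1 (9.57 and 9.43 in fNSC, against 14.37 and 14.33 in MEF, 28.8-fold) were lower, and the integrins Itga9 (at least 5.67-fold) and Itga6, the laminin receptor of neural stem cells (8.53 and 8.44 in fNSC, against 6.98 and 7.17 in MEF, 2.65-fold), higher. Contractile and actin genes gave 18 lower (58.1%) and 1 higher (3.23%) of 31, against 17.2% and 25.9% of all genes (median -1.35). Acta2 led on all of its 4 probes (log2 differences between -7.34 and -9.38), and tropomyosin Tpm1 stood at 11.91 and 11.93 in fNSC, against 15.83 and 15.84 in MEF (15.1-fold), calponin Cnn2 at 5.74 and 4.78 in fNSC, against 10.65 and 10.75 in MEF (at least 22.5-fold), Capg was 18.1-fold lower, Palld 12.2-fold and caldesmon Cald1 10.7-fold. Cfl1, non-muscle cofilin, was 2.32-fold higher, and Tmsb4x, thymosin beta 4, was near equal (15.53 and 15.50 in fNSC, against 15.26 and 15.30 in MEF). Srf, the transcription factor that binds CArG boxes, was at 10.91 and 10.91 in fNSC, against 11.27 and 11.22 in MEF, and not called. The annexin and S100 families gave 9 lower of 12 (75%, against 17.2% of all genes) and 3 not called (median -2.86). Among the lower ones were Anxa3, Anxa2 (8.34 and 8.19 in fNSC, against 15.81 and 15.87 in MEF), Anxa11 (at least 14.9-fold), S100a4 (6.05 and 5.81 in fNSC, against 11.09 and 11.24 in MEF, at least 31-fold), S100a13 (at least 14.5-fold) and S100a11 (8.4-fold). Itga6 was not called without background correction (log2 difference 0.80) or with the authors' processed values (0.70).

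Of 17 genes listed as targets of YAP and TEAD, 10 (58.8%) were lower in fNSC and 3 (17.6%) higher, against 17.2% and 25.9% of all genes (median -2.37). The list also holds regulators of the pathway, namely Yap1, Wwtr1, Vgll4, Tead2 and Wwc1. Ccn2 was furthest apart, the receptor kinase Axl stood at 10.27 and 10.13 in fNSC, against 14.52 and 14.54 in MEF (20.1-fold lower) and Ccn1 at 8.44 and 8.89 in fNSC, against 12.25 and 12.11 in MEF (11.4-fold lower). Crim1 was at least 13.7-fold lower, Gadd45b at least 7.64-fold and Rbms3 11.4-fold. Higher were Wwc1, the upstream Hippo regulator KIBRA, with 10.04 and 10.13 in fNSC, against 6.62 and 6.52 in MEF (11.4-fold), Igfbp3 (7.76-fold) and Tead2. The co-activator Wwtr1, or TAZ, was at 6.18 and 6.35 in fNSC, against 6.84 and 6.44 in MEF, and not called.

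Promoters of Ccn1 and Axl of this group and of the contractile gene Cnn2 are shown. These genes were lower in fNSC and were picked among those that hold the motif searched. Some other lower genes hold it too and some do not, as listed below. Each line gives the 250 bases before the start, 5′ to 3′ on the gene's strand (RefSeq, GRCm38.p6). Capitals mark the TEAD hexamer GGAATG or its reverse complement in Ccn1 (chr3:145649986-145650235, minus strand) and Axl (chr7:25788734-25788983, minus strand), and a CArG box in Cnn2 (chr10:79988350-79988599, plus strand).
Ccn1: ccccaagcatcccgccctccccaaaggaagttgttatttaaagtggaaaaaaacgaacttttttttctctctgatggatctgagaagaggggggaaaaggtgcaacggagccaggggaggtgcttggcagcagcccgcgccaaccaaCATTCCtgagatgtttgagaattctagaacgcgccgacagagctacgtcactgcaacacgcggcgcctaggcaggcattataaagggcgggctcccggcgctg
Axl: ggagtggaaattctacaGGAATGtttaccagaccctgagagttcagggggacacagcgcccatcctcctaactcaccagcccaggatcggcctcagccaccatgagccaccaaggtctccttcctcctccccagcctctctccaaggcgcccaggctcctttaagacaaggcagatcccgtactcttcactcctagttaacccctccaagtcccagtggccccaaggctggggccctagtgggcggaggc
Cnn2: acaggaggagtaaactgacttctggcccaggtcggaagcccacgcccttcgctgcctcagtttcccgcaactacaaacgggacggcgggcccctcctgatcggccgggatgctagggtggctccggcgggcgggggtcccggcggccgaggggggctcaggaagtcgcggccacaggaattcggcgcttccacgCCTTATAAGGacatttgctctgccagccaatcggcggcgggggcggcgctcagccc
The TEAD hexamer was found on either strand in 8 of the 15 measured YAP and TEAD genes with a promoter in the table, against 12.6% of 32851 windows. These were Ccn1, Amotl2, Axl, Crim1 and Ptpn14, called lower, and Yap1, Wwtr1 and Vgll4, not called. No window of Tgfb2, Gadd45b and Rbms3 (lower), Nt5e (not called) or Wwc1, Igfbp3 and Tead2 (higher) held it. The hexamer began 103 bases before the start in Ccn1 and 233 bases in Axl. The CArG box, searched as CCWWWWWWGG with W for A or T and no mismatch, was found in 5 of 29 measured contractile genes with a promoter, against 1.47% of windows. It began 56 bases before the start of Cnn2. Of the carriers, Cnn2, Myl6, Fhl1 and Lima1 were lower, and Srf was not called. By this strict pattern the windows of Acta2, Tpm1, Cald1, Capg and Palld, also lower, and of Cfl1, higher, held none. A gene with several windows counted if any held the motif, as for the heptamer above, whereas the background is counted by window. The lists are named for these factors in part, so the matches are a description of the lists.

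Intermediate filament and junction genes gave 6 higher and 7 lower of 19 (31.6% higher and 36.8% lower, against 25.9% and 17.2% of all genes, median -0.24). The nuclear lamins ran in opposite directions. Lamin B1, Lmnb1, had 13.17 and 13.40 in fNSC, against 9.16 and 9.72 in MEF (14.3-fold higher), and Lmnb2 was 3.69-fold higher, whereas the A-type lamin Lmna had 10.89 and 10.77 in fNSC, against 13.77 and 13.78 in MEF (7.68-fold lower). All 4 further Lmna probes were lower as well, by log2 differences between -2.99 and -4.04. The junction protein Jam2 (11.41 and 11.18 in fNSC, against 5.82 and 6.11 in MEF, at least 33.1-fold) and the cadherins Cdh6 (at least 6.47-fold) and Cdh13 (8.19-fold) were higher, and Gjc1 (at least 6.28-fold) and plakophilin Pkp2 (5.66-fold) lower.

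Growth factors, receptors and their binding proteins gave 24 lower and 15 higher of 51 (29.4% higher and 47.1% lower, against 25.9% and 17.2% of all genes, median -0.45). Igf2 was the largest, with 5.49 and 5.03 in fNSC, against 13.43 and 13.43 in MEF, and Igfbp7 stood at 8.14 and 7.81 in fNSC, against 15.32 and 15.58 in MEF. The receptors Flt1 (7.17 and 7.11 in fNSC, against 11.94 and 11.98 in MEF, 28.3-fold), Osmr (24-fold) and Il6st (at least 10.3-fold) were lower. Higher in fNSC were Igfbp2, the neurotrophin receptor Ntrk2 (10.85 and 10.79 in fNSC, against 5.31 and 5.27 in MEF, at least 23.9-fold), and Etv4, Etv5 and Etv1, transcription factors induced by fibroblast growth factor signalling (10.6-fold, 8.64-fold and at least 5.99-fold). Fgf1 was at least 16.1-fold higher on its brightest probe but only 0.34 in log2 difference on the other. In the TGF-beta and BMP pathways 15 of 33 (45.5%) were lower and 3 (9.09%) higher, against 17.2% and 25.9% of all genes (median -0.88). The ligand Tgfb3 was at least 28-fold lower, Tgfb2 6.41-fold, the latency protein Ltbp1 at least 34.8-fold, the type II receptor Tgfbr2 13.9-fold (9.32 and 9.53 in fNSC, against 13.25 and 13.20 in MEF) and follistatin-like Fstl1 23.4-fold. Bmp7 (at least 2.11-fold), the activin receptor Acvr2b (4.97-fold) and Tgif2 (at least 2.89-fold) were higher, while the type I receptor Tgfbr1 stood at 11.63 and 11.89 in fNSC, against 11.23 and 11.12 in MEF, without a call. A further probe of Tgfbr1 gave -0.12 in log2 difference. Bmp7 and Tgif2 were not called without background correction (log2 differences 0.86 and 0.91) or with the authors' processed values (0.74 and 0.79).

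Genes of the dividing cell were mostly higher in fNSC. Of 49 measured genes of DNA replication and licensing, 45 were higher (91.8%, against 25.9% of all genes) and 4 were not called, with a median log2 difference of 2.24. Ccne2, cyclin E2, had 9.91 and 9.97 in fNSC, against 6.28 and 6.15 in MEF (at least 12.7-fold higher). The uracil glycosylase Ung was 8.27-fold higher, topoisomerase Top2a 7.65-fold (12.28 and 12.37 in fNSC, against 9.30 and 9.47 in MEF), Mcm10 7.11-fold, E2f2 at least 3.6-fold and Dut at least 6.9-fold. E2f1 (10.74 and 10.89 in fNSC, against 11.03 and 11.09 in MEF), E2f3 (8.31 and 8.36 in fNSC, against 9.09 and 9.06 in MEF) and Ccne1 (7.15 and 7.03 in fNSC, against 7.47 and 7.61 in MEF) were not called, and Rpa1 was at 13.94 and 13.92 in fNSC, against 13.28 and 13.35 in MEF. Of 44 mitosis genes 43 were higher (97.7%, against 25.9% of all genes, median 2.25). The spindle motor Kif11 stood at 10.64 and 10.78 in fNSC, against 7.0 and 6.94 in MEF (13.4-fold), Cdca8 and Incenp of the chromosomal passenger complex were 10.8-fold and 8-fold higher, Nusap1 9.15-fold, Cdc25c at least 7.14-fold and Cdca5 7.89-fold. The member without a call was Spc24, of the kinetochore (8.64 and 8.77 in fNSC, against 8.55 and 8.54 in MEF, a further probe at 1.02 in log2 difference). These RNAs were nonetheless present in MEF, since 44 of the 49 replication genes and 38 of the 44 mitosis genes were detected on both MEF arrays.

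Of 31 genes listed as cell cycle inhibitors and p53 targets, 13 were lower in fNSC and 4 higher (12.9% higher and 41.9% lower, against 25.9% and 17.2% of all genes, median -0.47). The list also holds the D-type cyclins and the kinase Cdk2, which are neither. The kinase inhibitor Cdkn2b had 7.18 and 6.77 in fNSC, against 13.31 and 13.37 in MEF (82.4-fold lower, log2 difference -6.36, SE 0.169), and Cdkn1c 8.92 and 8.92 in fNSC, against 12.64 and 12.71 in MEF (13.5-fold lower). The p53 targets Pmaip1 (at least 13.5-fold) and Mdm2 (11.54 and 11.62 in fNSC, against 13.90 and 13.80 in MEF, 4.83-fold) and the growth arrest genes Gadd45b and Gadd45a (7.54-fold) were lower too. Higher were the inhibitor Cdkn2c (10.72 and 10.45 in fNSC, against 7.77 and 7.53 in MEF, 7.64-fold), Rbl1 (5.28-fold), Cdk2 (3.47-fold) and Aen (2.35-fold). Ccnd1, cyclin D1, was at 14.38 and 14.37 in fNSC, against 13.62 and 13.58 in MEF, and not called. Further probes of Ccnd1 gave 0.33 and 1.39 in log2 difference. Aen was not called without background correction (log2 difference 0.78) or with the authors' processed values (0.69).

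**Figure D4:**
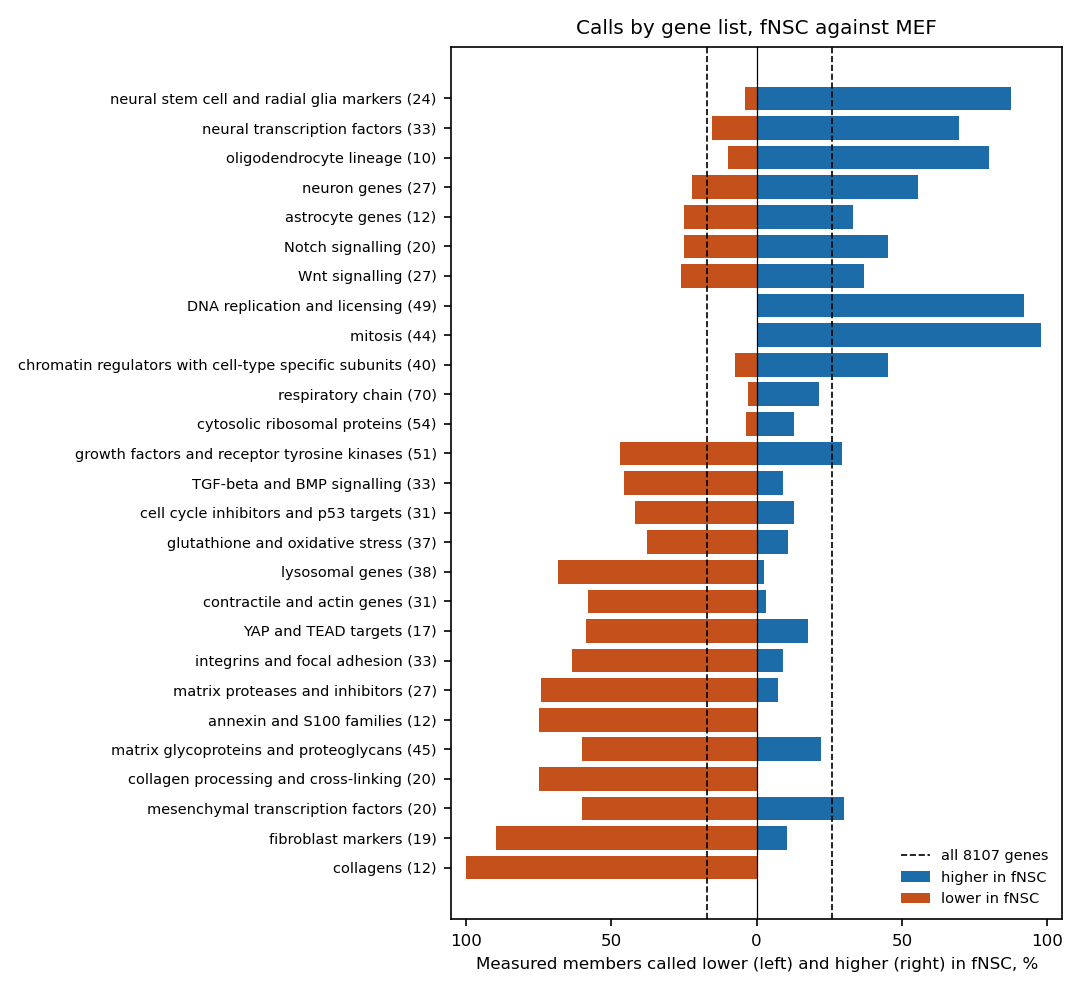
Share of the measured members (number in brackets) of 27 gene lists called higher (blue, right) and lower (orange, left) in fNSC, with dashed lines at the shares of all 8107 genes (25.9% and 17.2%). The mitosis, replication and neural stem cell lists reach furthest right, and the collagen and fibroblast lists furthest left.

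Lysosomal genes were mostly lower in fNSC. Of 38 measured, 26 (68.4%) were lower and 1 (2.63%) higher, against 17.2% and 25.9% of all genes (median -1.71). Cathepsins Ctsz, Ctsc and Ctsd were at least 27.3-fold, at least 23.3-fold and at least 4.36-fold lower, the hexosaminidase subunit Hexa had 8.52 and 8.49 in fNSC, against 12.44 and 12.39 in MEF (15-fold lower), Arsa was 10.3-fold lower and the glycogen-degrading Gaa 7.79-fold. Galactosylceramidase, Galc, which degrades myelin lipids, was the exception at 6.76 and 6.82 in fNSC, against 5.53 and 5.81 in MEF (at least 1.46-fold higher), and Ids was at 11.83 and 11.78 in fNSC, against 11.47 and 11.46 in MEF, with no call. Galc was not called without background correction (log2 difference 0.37) or with the authors' processed values (0.24), nor without the first MEF array (0.98). Glutathione and oxidative stress genes gave 14 lower (37.8%) and 4 higher (10.8%) of 37, against 17.2% and 25.9% of all genes (median -0.55). Gstm2 stood at 8.16 and 7.77 in fNSC, against 12.92 and 12.93 in MEF (31.2-fold lower, further probes at -5.02 and -5.01 in log2), Gsto1 was 9.54-fold lower, and the NRF2 targets Hmox1, Srxn1 and Nqo1 were 10.2-fold, 5.94-fold and 3.96-fold lower. Gstp1, Gstm1 and the peroxiredoxin Prdx3 were higher by 2.29-fold, 2.24-fold and 2.22-fold. The further probes of Gstp1 gave 0.58 and 0.62 in log2 difference, and it was not called with the mean of its probes (0.80). Gstm1 was not called with the authors' processed values (log2 difference 0.96). Members of the Gstm and Gstp families are similar in sequence, and their probes may share signal.

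Respiratory chain genes were higher in 15 of 70 cases and lower in 2 (21.4% higher and 2.86% lower, against 25.9% and 17.2% of all genes, median 0.49). Both shares lay below those of all genes. Ndufa12 of complex I was at 12.59 and 12.63 in fNSC, against 10.70 and 10.68 in MEF (3.78-fold), Cyc1 3.54-fold higher and Ndufb10 2.46-fold lower. Of 18 glycolysis genes 4 were higher and 4 lower (22.2% higher and 22.2% lower, against 25.9% and 17.2% of all genes, median 0.31), near the background. Enolases Eno2 and Eno3 (5.48 and 5.80 in fNSC, against 10.59 and 10.64 in MEF, at least 21.2-fold lower) and phosphofructokinase Pfkp (5.05-fold lower) stood against Aldoc and Pfkl (2.45-fold higher, another probe at -0.86, and 0.22 and not called with the mean of the probes). Ndufb10 was not called without background correction (log2 difference -0.96). Cholesterol and fatty acid synthesis gave 8 higher and 3 lower of 33 (24.2% higher and 9.09% lower, against 25.9% and 17.2% of all genes), with the share of higher calls near the background. The elongase Elovl5 was at 14.17 and 14.16 in fNSC, against 12.79 and 12.78 in MEF (2.6-fold), Fads2 was 3.36-fold higher and Fads3 at least 17.6-fold lower. Of 54 cytosolic ribosomal protein genes 7 were higher and 2 lower (13% and 3.7%, against 25.9% and 17.2% of all genes, median 0.20). Rps15a was the furthest apart (9.46 and 9.56 in fNSC, against 5.74 and 5.42 in MEF, at least 9.6-fold). Ribosomal protein genes have many near-identical pseudogenes, which makes single probes uncertain.

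Of 40 chromatin regulators, 18 were higher and 3 lower (45% higher and 7.5% lower, against 25.9% and 17.2% of all genes, median 0.84). Ezh2, the methyltransferase of Polycomb complex 2, had 11.08 and 10.72 in fNSC, against 8.0 and 8.07 in MEF (7.29-fold higher), Bmi1 and Cbx2 of Polycomb complex 1 were 5.33-fold and at least 3.24-fold higher, and Uhrf1, which guides DNA methylation after replication, 5.7-fold. Hmgn2, a nucleosome-binding protein, stood at 15.46 and 15.36 in fNSC, against 12.57 and 12.65 in MEF (6.97-fold). The BAF subunit Smarcd2 (9.0 and 9.10 in fNSC, against 11.49 and 11.45 in MEF, 5.35-fold) and the deacetylase Hdac7 (2.74-fold) were lower. Of 9 measured pluripotency and germline genes 3 were higher and 3 lower (33.3% each, against 25.9% higher and 17.2% lower of all genes). The higher ones were the nuclear receptor Esrrb, at 9.69 and 9.66 in fNSC, against 5.06 and 4.99 in MEF (at least 10.8-fold), the DNA methyltransferase Dnmt3b (9.48 and 9.51 in fNSC, against 7.28 and 7.25 in MEF, 4.69-fold) and Sox2, and the lower ones the Kruppel-like factors Klf4, Klf2 (5.31-fold) and Klf5 (4.84-fold). Pou5f1 was detected on 1 fNSC array and no MEF array (6.49 and 5.57 in fNSC, against 5.50 and 5.45 in MEF), and was called higher without the second fNSC array, at a log2 difference of 1.01. Nanog, Lin28a and Zfp42 have no named probe here. Among 11 measured Hox genes and cofactors 4 were higher and 1 lower (36.4% and 9.09%, against 25.9% and 17.2% of all genes). Hoxa5 stood at 11.86 and 11.92 in fNSC, against 9.30 and 9.34 in MEF (5.92-fold), Hoxa2 and Hoxa4 were at least 3.36-fold and at least 2.2-fold higher, as was the cofactor Pknox2 (at least 7.17-fold), while the cofactor Meis3 was at least 1.25-fold lower. Meis2 was near equal (11.42 and 11.48 in fNSC, against 11.41 and 11.31 in MEF). Hoxa2, Hoxa4 and Meis3 were not called without background correction (log2 differences 0.87, 0.58 and -0.43) or with the authors' processed values (0.76, 0.46 and -0.54). Cbx2 was not called with the authors' processed values (log2 difference 0.90).

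Imprinted genes are read from 1 parental copy. Of 12 measured paternally expressed genes 5 were higher in fNSC, 4 lower and 3 not called (41.7% higher and 33.3% lower, against 25.9% and 17.2% of all genes, median 0.24). Mest, of the hydrolase family, had 13.21 and 13.63 in fNSC, against 9.38 and 9.38 in MEF (16.4-fold higher, further probes at 4.73 and 4.76 in log2 difference). Nnat, or neuronatin, was at 9.80 and 9.76 in fNSC, against 5.63 and 5.37 in MEF (at least 11.6-fold), Nap1l5 at 9.78 and 9.65 in fNSC, against 5.98 and 6.38 in MEF (at least 10.7-fold) and Mkrn3 at 9.73 and 9.72 in fNSC, against 6.46 and 6.34 in MEF (10.0-fold). Against these, Igf2 and Dlk1 were bright in MEF and below detection in fNSC, Ndn, or necdin, was at 9.42 and 9.72 in fNSC, against 13.55 and 13.53 in MEF (15.7-fold lower) and Impact at 10.58 and 10.52 in fNSC, against 13.25 and 13.03 in MEF (6.03-fold lower). Snrpn was at 12.67 and 12.77 in fNSC, against 12.01 and 12.10 in MEF, and not called. A further probe of Snrpn gave 1.10 in log2 difference. Among 16 maternally expressed genes 4 were higher and 4 lower (25% higher and 25% lower, against 25.9% and 17.2% of all genes), near the background. Cdkn1c and Igf2r, the clearance receptor of Igf2 (10.03 and 9.70 in fNSC, against 12.60 and 12.54 in MEF, 6.52-fold lower), were bright in MEF together with Igf2, Cobl was at least 1.73-fold lower, and Ppp1r9a, or neurabin, was at 10.26 and 10.18 in fNSC, against 5.19 and 5.16 in MEF (at least 15.7-fold higher). Which parental copy is read in these cells was not measured. Cobl was not called without background correction (log2 difference -0.55) or with the authors' processed values (-0.68).

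Interferon response and antigen presentation genes gave 9 lower and 5 higher of 25 (20% higher and 36% lower, against 25.9% and 17.2% of all genes, median -0.44). Ifit3 was at 6.39 and 6.34 in fNSC, against 9.24 and 9.07 in MEF (6.91-fold lower), Tap2 5.11-fold lower and B2m, the light chain of MHC class I, 2.89-fold lower, whereas H2-K1 was at 8.05 and 8.17 in fNSC, against 5.42 and 5.12 in MEF (at least 3.65-fold higher) and Gbp3 5.82-fold higher. MHC class I and Gbp genes have close paralogues, so their probes are uncertain. Of 23 chemokine, cytokine and complement genes 8 were higher and 9 lower (34.8% and 39.1%, against 25.9% and 17.2% of all genes). The stromal chemokine Cxcl12 had 6.21 and 6.79 in fNSC, against 12.45 and 12.53 in MEF (63.7-fold lower, another probe at -1.86), Csf1 was 14.4-fold lower, and the monocyte attractants Ccl7 and Ccl2 13.8-fold and 5.11-fold. Lipocalin 2, Lcn2, was at 9.36 and 9.31 in fNSC, against 4.70 and 4.58 in MEF (at least 8.51-fold higher), the tumour necrosis factor receptor family member Tnfrsf19 at least 8.53-fold higher and Il18 at least 5.99-fold.

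Few markers of other cell types were measured, too few to set their calls against the 25.9% higher and 17.2% lower of all genes. Their signals are summed over the measured genes of a list on the linear scale after normalization. Of 23 listed microglia and macrophage genes 2 were measured, with sums of 594 and 620.2 on the fNSC arrays and 6345 and 6229 on the MEF arrays. Lyz1, a lysozyme, made up nearly all of the MEF sum (5.20 and 5.34 in fNSC, against 12.62 and 12.59 in MEF, at least 84.2-fold lower in fNSC), and its probe may also read the near-identical Lyz2. Cd14 was at 9.20 and 9.26 in fNSC, against 6.48 and 6.30 in MEF (7.16-fold higher). Csf1r, Aif1, Cx3cr1 and Ptprc have no named probe that passed the filter. Of 23 genes of endothelium and pericytes 7 were measured (1 higher, 3 lower), with sums of 2729 and 2575 on the fNSC arrays and 5049.5 and 5125 on the MEF arrays. Plvap was at least 19.9-fold higher and Flt1 lower, and Pecam1, Cdh5 and Kdr have no named probe here. The list of muscle, cartilage and fat gave 7 measured genes of 26 (2 higher, 3 lower) and sums of 1011 and 1103 on the fNSC arrays and 4642 and 4539 on the MEF arrays, with lipoprotein lipase Lpl at 6.15 and 6.23 in fNSC, against 11.89 and 11.84 in MEF (at least 50.1-fold lower). Neural crest genes gave 2 higher and 1 lower of 5 measured, 19 listed (18442 and 19365 on the fNSC arrays and 15329.9 and 15353 on the MEF arrays), with Ednrb at 13.63 and 13.75 in fNSC, against 10.48 and 10.41 in MEF (9.47-fold), Tfap2a 7.78-fold higher and the peripheral myelin gene Pmp22 at 9.57 and 9.46 in fNSC, against 13.27 and 13.31 in MEF (13.6-fold lower). A single epithelial gene of 21 was measured, the keratin Krt7 (5.50 and 5.84 in fNSC, against 6.75 and 6.54 in MEF), which was not called on all arrays and was called lower with median scaling (log2 difference -1.09), without the second fNSC array (-1.15) and without the second MEF array (-1.08). A single blood gene of 12 was measured, Coro1a (6.6 and 7.06 in fNSC, against 6.30 and 6.50 in MEF), and not called. The part of other cells in these values was not tested, and the naming gap described above bears on all of these lists.

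Of 290 genes tested on chromosome 19, 113 were higher (39.0%, against 19.9% to 34.6% on the 19 other chromosomes with values, the X included) and 34 lower (11.7%, against 14.3% to 21.9%). The median log2 difference was 0.77 on chromosome 19, against 0.09 to 0.38 on the others, and 0.65, against 0.05 to 0.25, over genes detected on all 4 arrays. Set against pNSC, which involves no MEF array, the fNSC median of chromosome 19 was 0.47, and set against miPS-NSC 0.50, where the other chromosomes lay between -0.06 and 0.11. Chromosome 4 also departed from 0 against pNSC (0.70), but not against miPS-NSC (0.04) or more than other chromosomes against MEF (0.26). In pNSC and miPS-NSC, chromosome 19 stood at medians of 0.27 and 0.25 against the same MEF arrays. These are medians over genes of the same arrays, with no test over samples, and the comparisons share the fNSC or the MEF arrays.

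**Figure D5:**
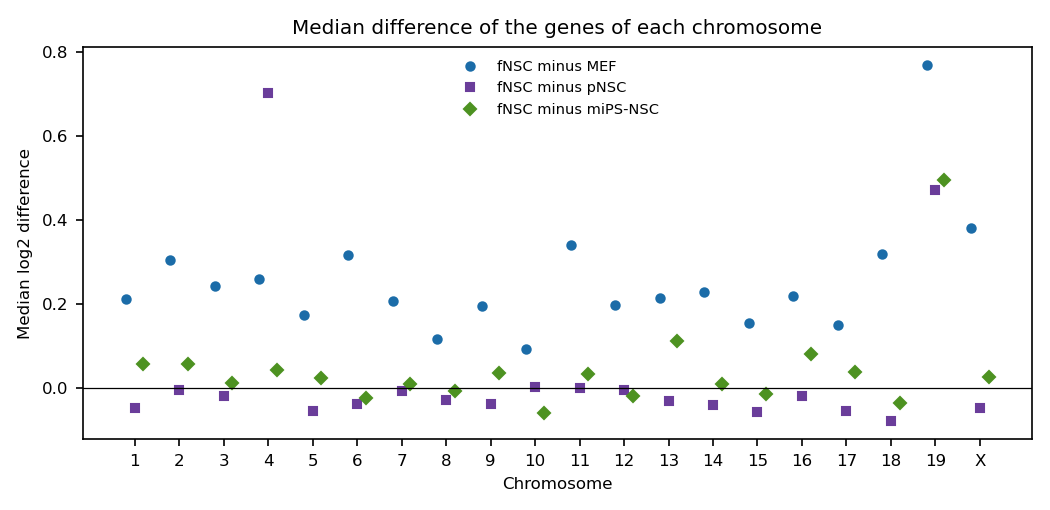
Median log2 difference of the genes of each chromosome between fNSC and MEF (circles), fNSC and pNSC (squares) and fNSC and miPS-NSC (diamonds). Chromosome 19 lies highest against MEF (0.77) and near 0.5 against both other neural stem cell groups, and chromosome 4 at 0.70 against pNSC.

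Against pNSC 928 genes (11.4%) and against miPS-NSC 1144 genes (14.1%) were called, with the same fNSC arrays in each comparison. Some fibroblast-side genes were lower in fNSC than in those cells too. Anxa2 had 8.34 and 8.19 in fNSC, 13.43 and 13.46 in pNSC, 13.84 and 13.94 in miPS-NSC and 15.81 and 15.87 in MEF (log2 difference -5.18 against pNSC, adjusted p = 1.64e-07, and -5.62 against miPS-NSC, adjusted p = 1.38e-07). Cav1 had 5.73 and 5.39 in fNSC, 8.87 and 9.14 in pNSC and 10.27 and 10.42 in miPS-NSC (-3.45 and -4.79). Mmp14 (-3.65 and -3.81), Cdkn2b (-3.64 and -5.02), Col6a1 (-3.25 and -3.35), Gja1 (-4.16 and -3.23) and Eno2 (-3.44 and -6.34) were likewise lower against both, with adjusted p-values between 5.40e-08 and 6.98e-06. Thy1 differed from miPS-NSC (9.83 and 9.65, log2 difference -4.79) but was below detection in pNSC as in fNSC, and Twist2 differed from pNSC only (7.04 and 7.17, log2 difference -2.27, against -0.02 to miPS-NSC). On the neural side, Kcnc1 (1.78 and 4.86), Slc25a18 (2.42 and 3.17), Cd93 (5.16 and 4.09), Pou3f1 (2.20 and 2.31) and Hes5 (1.44 and 2.72) were higher in fNSC than in both, with adjusted p-values up to 2.39e-05. Olig1, Aldoc, Igfbp2, Slc1a3, Sox2 and Ckb were called against MEF and against neither other neural stem cell group, where their log2 differences lay between -0.32 and 0.39.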

How the data were processed

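Total RNA of 8 mouse samples, 2 in each of 4 groups, was amplified and hybridised to Illumina BeadChips, per the labels' protocols. The deposited table holds, per the file headers, an average signal intensity, a detection p-value, a bead number and a bead standard error for each of 25697 probes, and quantiles that differ between arrays. GenomeStudio 2009.2 is named in the submitters' processing notes, and no source used here gives the background step. The authors also deposited processed log2 values of 12421 probes with identical quantiles on all arrays, which served as an alternative. Their centring and background step stay unknown.

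Intensities were background-corrected from the detection p-values, offset by 16 and quantile normalized with neqc (limma 3.58.1, R 4.3.3). Probes with a detection p under 0.01 on every array of some group were kept, 12478 in all. Gene symbols came from GEO's platform annotation, which covers the probes of the processed values. Of these 11692 have 1 symbol and 729 none, 11686 matched RefSeq by gene ID, and no symbol had to be updated. The brightest kept probe stood for each of 8107 genes. Of 834 called genes with further kept probes, 99 had one of opposite sign. A linear model over all 8 arrays was fitted with lmFit and eBayes, and p-values of the contrast of fNSC minus MEF were adjusted by the Benjamini-Hochberg method over all genes. Calls needed an adjusted p under 0.05 and a difference of at least 2-fold. This threshold was set on the log2 difference of the normalized signals, those below detection included. A called gene can therefore have an "at least" fold under 2. Folds are "at least" where the dimmer group was detected on fewer than 2 arrays and then use the higher of the probe's signal and the lowest signal of a detected probe on each array. The fit was also run on simulated data as a check of the code, and no result is drawn from that run.

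The 45 gene lists and the comparison itself were chosen with earlier results of these data known. Genes were named by a rule. It takes up to 6 members of each list in each direction by size, the 15 largest calls in each direction whose arrays do not overlap, the 10 largest among genes detected on both arrays of both groups, and the 5 brightest genes of each group. Other measured members of the lists, called or not, could be named as well, without a rule of size. Some genes without a measured probe are named as such. Alternatives covered background correction, normalization, the authors' values, the detection filter, the probe of a gene, the arrays in the fit and the replicate block. Arrays with the same number in fNSC and MEF did not deviate together (correlation 0.03). Promoters are those of RefSeq (GRCm38.p6).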

Additional observations from a re-analysis of the deposited data

How the results depend on the processing

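Of 297 called genes named above, 267 kept their direction and their call under every alternative that measured them. The calls lost came to 52, with 24 of them without background correction and 24 with the authors' processed values, and no called gene turned its direction. Ribosomal and chaperone genes without a call changed sign in 4 cases. With median scaling in place of quantile normalization Hspa8 was at 0.21, Rpl41 at 0.47 and Rps20 at 0.49, and with the mean of the probes Hspa8 was at 0.64. Without background correction 2185 genes were called in all, 1209 higher and 976 lower. The authors' processed values gave 2138 calls of 8576 genes, 1084 higher and 1054 lower, so that 50.7% of calls were higher, against 60.1%, and the median difference over all genes was 0.05. Requiring detection on all 4 arrays, chosen after seeing the data, left 6344 genes and 2236 calls, 1285 higher and 951 lower. These settings moved the count of all calls, the count of higher genes, or both, by over 1.5 times. Leaving out 1 array at a time gave 3442 to 3511 calls, 2051 to 2125 higher and 1386 to 1403 lower. With the array number as a replicate block 3494 genes were called, 2100 higher and 1394 lower. Calls over probes were 5662 with detection asked of fNSC or MEF alone. The median differences of the Wnt, maternally expressed, pluripotency, lipid synthesis and chemokine lists changed sign under at least 1 alternative. Across the alternatives 129 of 629 list medians moved by at least the typical spread between arrays, fNSC and MEF combined. Among 1258 list counts of higher or lower calls, 89 moved by over 1.5 times or to or from 0. Signal near background limits the fold of genes detected in 1 cell type.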
